A study of Mus musculus with 12 samples.

Results

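The genes described here are 39 genes of DNA replication and of the step from G1 into S phase, taken by symbol from the 24421 gene symbols of a mouse tumour RNA-seq table. They cover origin recognition and licensing (4 genes), the MCM helicase (6), the factors that activate it (6), polymerase alpha with its primase (4), polymerases delta and epsilon (4), the sliding clamp and its loader (6), single-strand binding and flap removal (3), G1/S regulators (3), and thymidylate synthesis with the copying of chromatin (3). All 39 were found and all had a mean of at least 1 FPKM (a fragment count divided by transcript length and scaled to 1000000 mapped fragments) over the 12 libraries, the limit for testing, which 12765 genes passed.

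The libraries came from 425-ICC tumours, a mouse model of intrahepatic cholangiocarcinoma (cancer of the bile ducts within the liver), taken at 8 days of treatment. Control tumours had been given IgG, the antibody control. GC tumours had been given chemotherapy, for which the labels print only the abbreviation, commonly gemcitabine with cisplatin. ICB tumours had been given dual immune checkpoint blockade, named in the series title as CTLA-4 blockade with anti-PD1, and Combination tumours had been given GC and ICB together. Each group has 3 libraries. The genotype of the tumour cells, the host strain, its age and sex, the site of growth, the doses and whether each tumour came from its own animal are not given in the sources used here. The tests below therefore speak only of the spread among these 12 samples, which may be technical. In bulk tumour RNA, fewer dividing cells and less RNA of a gene per cell cannot be told apart.

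Before a cell copies its DNA, the origin recognition complex with Cdc6 and Cdt1 loads rings of MCM2 to MCM7 onto the origins. At the start of S phase, the kinase partnered by cyclin E and the Dbf4-dependent kinase turn these rings into moving helicases with the help of Mcm10, Cdc45 and the GINS complex, and polymerases alpha, delta and epsilon then copy the strands. Transcription of most of these genes is driven in late G1 by E2F factors, once cyclin-dependent kinases release them from the retinoblastoma protein. Gemcitabine is a nucleoside analogue and cisplatin crosslinks DNA, so both act on replicating DNA.

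The libraries differed in tissue makeup, and some stood apart in ways that the groups do not explain. Of 10 biliary and epithelial tumour markers, Sox9 (7.56 to 91.9 FPKM) and Spp1 (276 to 7598 FPKM) were present in every library, while Krt19 and Epcam were each listed at 0 in 2 libraries. Summed over 20 hepatocyte genes, the share of all FPKM was at most 0.0376% in a Control library (lowest 0.0219%). It ran from 0.198% to 1.5% for GC and from 0.136% to 0.489% for ICB. The Combination libraries had 0.811% (replicate 1), 19.96% (replicate 2) and 8.16% (replicate 3). Combination replicate 1 held small intestinal transcripts (15 genes, 1.06% of FPKM against at most 0.0997% elsewhere), and Control replicate 2 and GC replicate 2 were rich in muscle transcripts (10 genes). Control replicate 1 had the lowest mean of 8 macrophage genes, at 4.06 on the log2(FPKM + 1) scale, against 5.99 and 5.98 in the other Control libraries. Read depth is unknown, since whole reads could not be recovered from the FPKM.

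The replication genes shared promoter features, some of them as common in mitosis genes. RefSeq promoter windows (GRCm38.p6, 250 bases before to 50 after the start) were available for 31 of the 39 genes. None is given here for Mcm4, Gins1, Gins2, Gins4, Prim2, Pole, Rfc2 and Ccne2. The E2F core was searched on both strands in 4 spellings, with overlapping matches counted separately. The spelling TTCCCGC is a common form, and the search also took the form TTGGCGC, the form TTGCCGC and the related form TTCGCGC. It was present in 19 of 31 genes (61.3%), against 10.9% of 27025 genes with a window and 19.0% of 9534 such genes that were tested here. In 20 mitosis genes with a window it was present in 3 (15%). The CHR element TTTGAA, known from promoters of late cell cycle genes, had the other distribution: 5 of 31 replication genes (16.1%), 14 of 20 mitosis genes (70%) and 14.4% of tested genes. CCAAT was found in 20 of 31 replication genes (64.5%) and in 42.8% of tested genes, and the GC box GGGCGG in 24 of 31 (77.4%) and 67.3%. Each of these was present in 16 of 20 mitosis genes (80%), so neither is particular to the replication genes. A match is a run of letters and does not show that a factor binds there.

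The 170 bases before the RefSeq start are shown for 4 genes that carry E2F cores there, and for Mcm2, a partner of Mcm5 and Mcm6 in one ring that has none in its window. Capitals mark the E2F cores on either strand. The bases just after each start were looked for in GENCODE M21 transcripts of the gene, and were found for 27 of 35 windows. They were found for Pola1 and Mcm2 but not for Mcm6, Mcm5 and Chaf1a, so the starts of these last genes are less certain. Mcm6 (chr1:128359706-128359875, minus strand) has the inverted arrangement in which 2 cores overlap head to head, and it has it at 2 places. Mcm5 (chr8:75109339-75109508, plus strand) has 3 cores, 2 of them overlapping in the same way, Pola1 (chrX:93632156-93632325, minus strand) has 3, and Chaf1a (chr17:56040246-56040415, plus strand) has 2. The Mcm2 stretch is chr6:88898781-88898950, minus strand.
Mcm6: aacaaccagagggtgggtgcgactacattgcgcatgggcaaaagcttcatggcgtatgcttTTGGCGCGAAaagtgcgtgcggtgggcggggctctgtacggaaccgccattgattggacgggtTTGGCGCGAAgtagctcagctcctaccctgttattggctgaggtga
Mcm5: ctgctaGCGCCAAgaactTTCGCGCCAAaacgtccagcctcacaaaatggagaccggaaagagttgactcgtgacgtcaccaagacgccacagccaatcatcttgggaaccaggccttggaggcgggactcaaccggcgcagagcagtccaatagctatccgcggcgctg
Pola1: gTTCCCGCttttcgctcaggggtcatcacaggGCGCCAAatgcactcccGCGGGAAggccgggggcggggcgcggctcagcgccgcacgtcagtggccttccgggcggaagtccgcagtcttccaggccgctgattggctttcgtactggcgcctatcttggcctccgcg
Chaf1a: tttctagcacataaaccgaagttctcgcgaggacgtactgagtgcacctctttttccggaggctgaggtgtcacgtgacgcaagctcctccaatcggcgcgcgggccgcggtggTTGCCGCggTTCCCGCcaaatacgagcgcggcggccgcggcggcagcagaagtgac
Mcm2: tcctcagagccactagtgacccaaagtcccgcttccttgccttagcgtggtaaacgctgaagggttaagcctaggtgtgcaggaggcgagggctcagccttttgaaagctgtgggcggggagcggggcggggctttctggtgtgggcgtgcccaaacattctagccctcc

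The other genes with an E2F core in the window were Orc1, Cdc6, Cdt1, Mcm3, Mcm7, Gins3, Prim1, Pold1, Pole2, Rfc1, Rfc3, Rfc4, Rpa2, Fen1 and Uhrf1. No core was found in the windows of Orc6, Mcm2, Mcm10, Cdc45, Pola2, Pold2, Pcna, Rfc5, Rpa1, Ccne1, E2f1 and Tyms. The E2f1 window (chr2:154569377-154569676, minus strand) lay wholly inside the annotated gene, which begins at 154569892. The bases before that point were therefore not searched. The RefSeq start used for Pcna also lay inside its annotated gene.

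**Figure D1:**
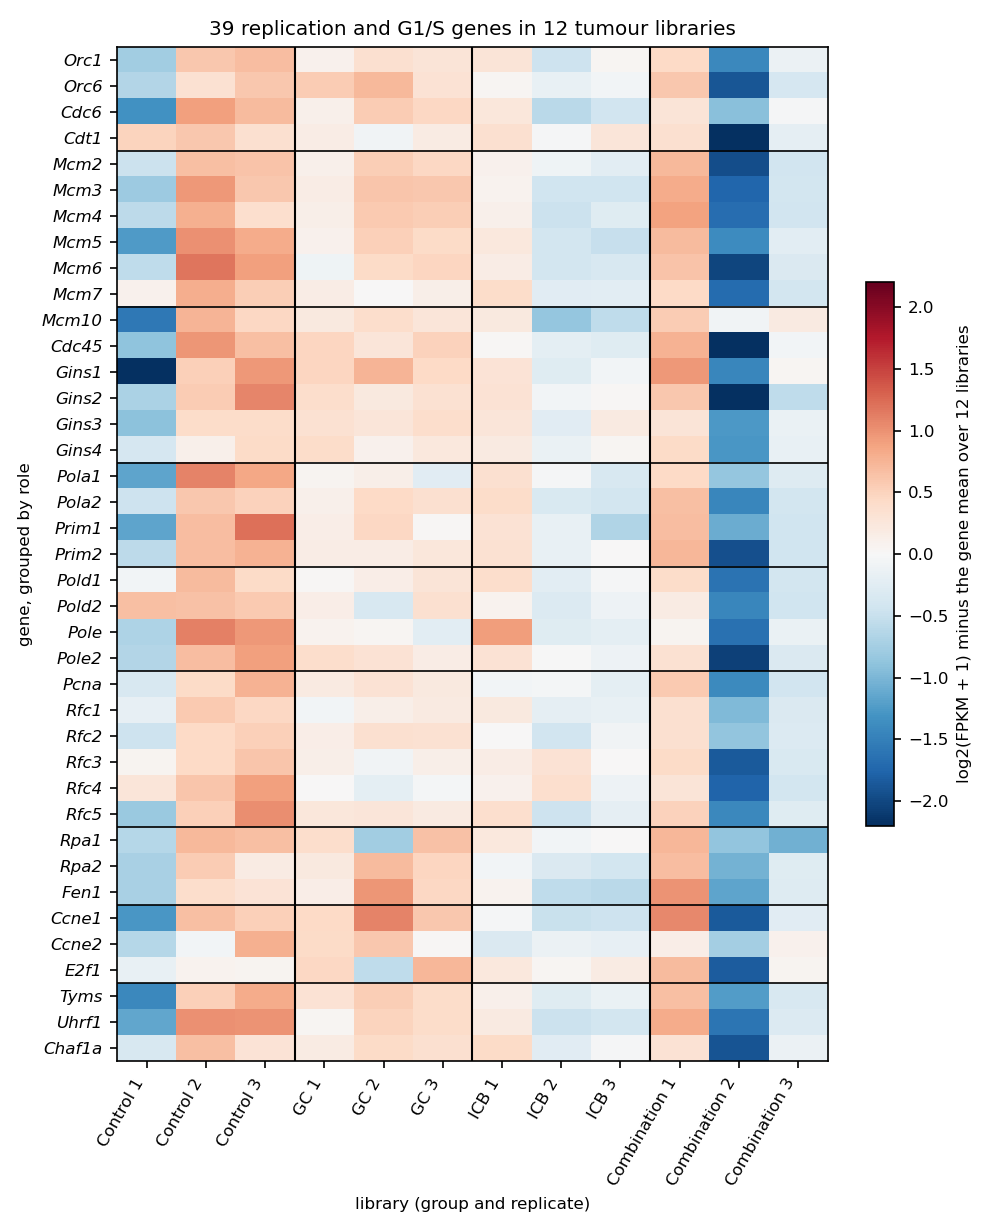
Each row is 1 of the 39 genes, grouped by role and separated by lines, and each column 1 of the 12 libraries; colour gives log2(FPKM + 1) minus the gene's mean over the libraries, with colours ending at 2.2 either way. Combination replicate 2 was the lowest library for 32 genes and Control replicate 1 for 6, and both columns stand out as blue.

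Levels varied widely between genes, within complexes too. Mean FPKM over the 12 libraries ran from 2.46 for Pola1, the catalytic subunit of polymerase alpha, to 81.5 for Pcna, the sliding clamp that holds polymerases on DNA. Of the 39 genes, 29 had a mean of at least 10 FPKM and 6 a mean below 5 FPKM (Orc1, Cdc6, Gins3, Pola1, Pole and Ccne2). Gins1 was the only member listed at 0 in a library, Control replicate 1.

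The genes moved together across libraries. Pearson's r between a gene and the mean of the other 38, on log2(FPKM + 1) over 12 libraries, had a median of 0.94 and exceeded 0.9 for 24 of 39 genes, which 5.73% of all tested genes did against the mean of the 39. Without Control replicate 1 and Combination replicate 2, which were left out after their low values were seen, the median over the 10 remaining libraries was 0.89, and 19 genes exceeded 0.9 (2.44% of tested genes). These points share library, depth and tissue makeup, and the correlations are a description. Uhrf1, which brings the maintenance DNA methyltransferase to copied DNA, had r = 0.97 over 12 libraries and 0.98 over 10, and Mcm5 had 0.95 and 0.96. E2f1, one of the activator E2F factors, followed the others least over the 10 libraries, with r = 0.13 against 0.74 over 12. Ccne2, the second cyclin E, had 0.43 and 0.74. The 24 mitosis genes tracked the same mean about as closely, with medians of 0.95 over 12 libraries and 0.94 over 10.

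The mean of the 39 genes on the log2(FPKM + 1) scale was 3.06, 4.35 and 4.36 in Control replicates 1, 2 and 3. It was 3.93, 4.02 and 4.03 in GC, 3.93, 3.47 and 3.53 in ICB, and 4.27, 2.22 and 3.44 in Combination. The 3 GC libraries were alike, whereas Control and Combination each held 1 library far below the rest. Control and Combination thus spread over SDs of 0.75 and 1.03, against 0.06 in GC and 0.25 in ICB (n = 3 each). As a share of all FPKM the 39 genes made up 0.0721%, 0.176% and 0.153% in Control, and 0.153%, 0.0354% and 0.0890% in Combination.

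**Figure D2:**
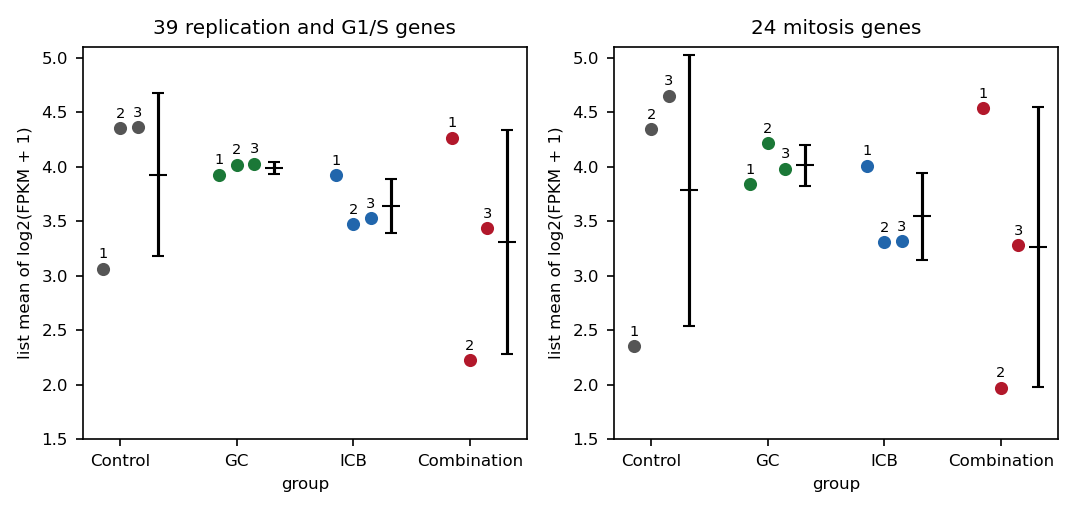
Points are libraries, numbered by replicate, and bars give group mean ± SD (n = 3) of the list mean of log2(FPKM + 1), for the 39 replication and G1/S genes (left) and 24 mitosis genes (right). Both lists are low in Control replicate 1 and Combination replicate 2, and the GC libraries lie between 3.93 and 4.03 in the left panel.

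Control replicate 1 was lower than both other Control libraries for 37 of the 39 genes, as it was for 53.4% of tested genes. Its median difference from the mean of the other pair was -1.29 on the log2 scale over the 39 genes, -2.10 over the mitosis genes and -0.21 over all tested genes. The exceptions were Cdt1 and Pold2. Combination replicate 2, with the largest share of liver transcripts, was the lowest Combination library for 38 of 39 genes and for 69.3% of tested genes, and Combination replicate 1 was the highest for all 39. The part of tissue makeup in these differences was not tested.

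**Figure D3:**
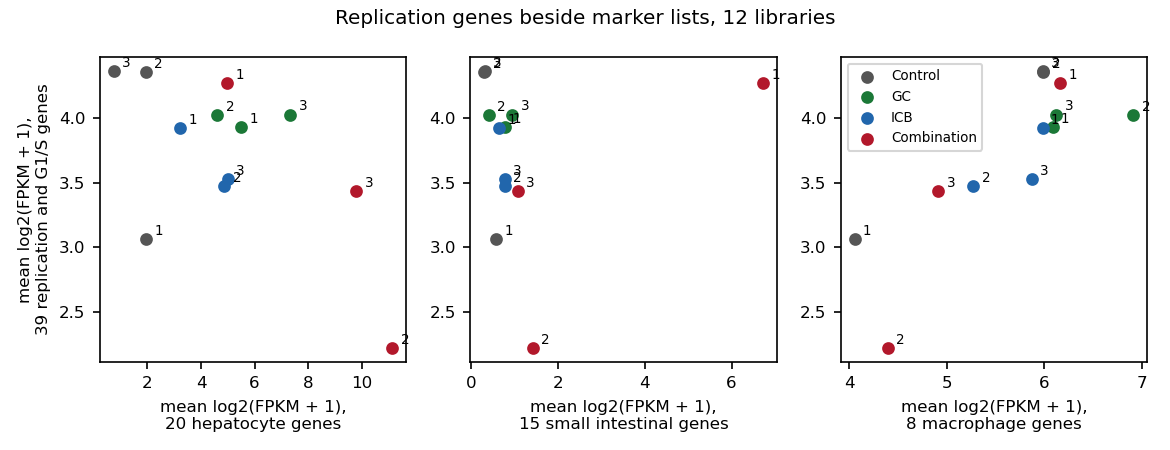
Each point is a library, coloured by group and numbered by replicate; the vertical axis is the mean log2(FPKM + 1) of the 39 genes and the horizontal axes are means of hepatocyte, small intestinal and macrophage marker lists. Combination replicate 2 has the highest hepatocyte mean (11.14) and the lowest mean of the 39 genes (2.22), Control replicate 1 has a low hepatocyte mean (1.95) and the lowest macrophage mean (4.06), and Combination replicate 1 is alone in small intestinal transcripts (6.72).

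No member passed an adjusted p of 0.05 in any of the 8 comparisons (limma on log2(FPKM + 1), Benjamini-Hochberg adjustment over 12765 genes). Among all tested genes this threshold was passed by 0.00783% for GC against Control, 0% for ICB against Control, 3.95% for Combination against Control, 0.666% for Combination against GC and 2.24% for Combination against ICB. It was passed by 3.36% for the chemotherapy main effect, 0.204% for the blockade main effect and 0.0157% for their interaction. At an unadjusted p of 0.05 the members counted 0, 0, 4, 0, 0, 1, 1 and 0 in that order, where 9.86%, 1.75%, 26.3%, 16.5%, 20.5%, 22.3%, 6.42% and 8.09% of tested genes passed. The 4 were Cdt1, Mcm7, Pold2 and Rfc4 for Combination against Control, and the others were Rfc4 for chemotherapy and Pold2 for blockade.

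The origin licensing genes were led in level by Orc6, a subunit of the origin recognition complex, and Cdt1, which brings the MCM ring to the origin and is removed after licensing. Orc6 read 17.0, 34.4 and 41.3 FPKM in Control, 40.5, 45.0 and 34.0 in GC, 28.1, 24.1 and 26.2 in ICB, and 41.4, 6.68 and 20.7 in Combination. The GC libraries lay at or near the level of the higher Control pair, and all were above all ICB libraries. The difference of Combination from GC was -1.08 ± 0.52 on the log2(FPKM + 1) scale (SE; limma adjusted p = 0.310). Without Combination replicate 1 it was -1.65 and passed (limma adjusted p = 0.0294), where 23.6% of tested genes passed. The interaction of chemotherapy and blockade was -0.93 ± 0.73 (limma adjusted p = 0.708), and 0.10 without Control replicate 1 and Combination replicate 2.

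Cdt1 (chr8:122568015-122573554, plus strand, GRCm38) read 31.2, 33.4 and 28.3 FPKM in Control, 24.7, 20.8 and 24.8 in GC, 28.1, 21.5 and 26.4 in ICB, and 28.1, 3.16 and 19.0 in Combination. Control lay above every treated library, though by little over the highest of ICB and Combination, and Control replicate 1 was not low. Its differences from Control were -0.39 ± 0.55 for GC, -0.29 ± 0.55 for ICB and -1.25 ± 0.55 for Combination (limma adjusted p = 0.885, 1 and 0.178). Combination differed from ICB by -0.96 ± 0.55 and the chemotherapy main effect was -0.68 ± 0.39 (limma adjusted p = 0.336 and 0.331). Orc1, the largest subunit of the origin recognition complex, and Cdc6, the ATPase that joins it, were low: Orc1 ran from 0.334 to 4.68 FPKM and Cdc6 from 0.260 to 4.93 FPKM. Cdc6 was lowest in Control replicate 1, and Orc1 in Combination replicate 2.

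Among the MCM helicase genes, Mcm5 was the lowest of the 6 in 11 of 12 libraries (Mcm4 in Control replicate 3), and the highest was Mcm6 in 6 and Mcm7 in 6. The highest exceeded the lowest 7.55-fold in Control replicate 1 and 2.27-fold to 3.28-fold elsewhere. Mcm6 read 20.2, 69.8 and 57.7 FPKM in Control, 28.3, 41.0 and 42.5 in GC, 34.1, 22.7 and 23.5 in ICB, and 47.2, 6.76 and 24.1 in Combination. Control replicates 2 and 3 were above all other libraries and Control replicate 1 was second lowest, so Control overlapped every treated group. The difference of ICB from Control was -0.70 ± 0.61 (limma adjusted p = 1).

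Mcm7 read 33.1, 54.3 and 45.4 FPKM in Control, 34.9, 30.9 and 33.8 in GC, 41.2, 25.8 and 26.1 in ICB, and 42.0, 8.86 and 23.0 in Combination. Control replicate 1 was within the GC range here. The differences of ICB and Combination from Control were -0.50 ± 0.44 and -1.03 ± 0.44 (limma adjusted p = 1 and 0.173), and the blockade main effect was -0.58 ± 0.31 (limma adjusted p = 0.511). The ratio of Mcm6 to Mcm7 was 1.29 and 1.27 in Control replicates 2 and 3 but 0.611 in replicate 1, and it stayed between 0.828 and 0.899 in ICB. Mcm7 shares exon positions with Cops6 and Ap4m1 on the opposite strand, and whether strand was used in counting is not given in the sources used here, so its level is uncertain. Mcm2, Mcm3, Mcm4 and Mcm5 had differences of -0.82 to -0.49 for Combination against Control and 0.10 to 0.22 for GC against Control.

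Among the helicase activators, Cdc45 and the 4 GINS subunits travel with the MCM ring, and Mcm10 helps to start it. Gins4 (mean 31.8 FPKM) and Gins2 (25.5 FPKM) exceeded Gins1 (6.51 FPKM) and Gins3 (3.14 FPKM) although the 4 form one complex. Gins1 read 0, 8.06 and 11.2 FPKM in Control, 7.70, 9.56 and 7.58 in GC, 6.74, 4.27 and 5.03 in ICB, and 11.1, 1.32 and 5.49 in Combination. Its difference of GC from Control, 0.95 ± 0.82 (limma adjusted p = 0.780), rests on the Control library listed at 0: without Control replicate 1 it was -0.19. Gins3 read 1.09, 4.18 and 4.19 FPKM in Control, 3.93, 3.71 and 4.14 in GC, 3.73, 2.27 and 3.5 in ICB, and 3.77, 0.637 and 2.52 in Combination, so every library but Control replicate 1 and Combination replicate 2 was above 2 FPKM. Its interaction of chemotherapy and blockade was -0.81 ± 0.61 (limma adjusted p = 0.704), and 0.07 without those 2 libraries. Mcm10 departed from the rest: it was 4.68 and 5.85 FPKM in Combination replicates 2 and 3, where most members were low, and 1.00 FPKM in Control replicate 1. Cdc45 ran from 1.76 FPKM in Combination replicate 2 to 24.8 FPKM in Control replicate 2.

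Polymerase alpha with primase makes the RNA and DNA primers. Its accessory subunit Pola2 (16.7 FPKM mean) was above the catalytic Pola1 in all 12 libraries, and the primase subunits Prim1 (12.3 FPKM) and Prim2 (12.4 FPKM) were nearly level. Pola1 ran from 0.407 to 5.71 FPKM, with the pair of Control replicates 2 and 3 above all other libraries. Prim1 was 18.0 and 26.6 FPKM in that pair, 4.33 FPKM in Control replicate 1 and at most 18.0 FPKM elsewhere. Differences of the 4 genes from Control ran from -0.84 to -0.49 for Combination, -0.41 to -0.23 for ICB and -0.28 to 0.09 for GC.

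Polymerase delta, which copies the lagging strand, gave the smallest p of any member. Its accessory subunit Pold2 (chr11:5872180-5878292, minus strand, GRCm38) read 41.4, 40.6 and 38.6 FPKM in Control, 28.7, 19.8 and 33.0 in GC, 27.2, 20.5 and 23.8 in ICB, and 29.4, 8.89 and 18.7 in Combination. The Control libraries were tight and lay above all 9 treated libraries. Pold2 thus averaged 40.2 ± 1.43 FPKM in Control, 27.2 ± 6.74 in GC, 23.8 ± 3.32 in ICB and 19.0 ± 10.2 in Combination (SD, n = 3). The log2 differences from Control were -0.58 ± 0.36 for GC, -0.74 ± 0.36 for ICB and -1.19 ± 0.36 for Combination (limma adjusted p = 0.659, 1 and 0.0875). The Combination difference passed after quantile normalization (-1.08, limma adjusted p = 0.0393), where 6.72% of tested genes passed. It also passed without Combination replicate 1 (-1.56, limma adjusted p = 0.00673), where 24.8% of tested genes did. The 3 differences use the same Control libraries. The main effects on Pold2 were -0.67 ± 0.25 for blockade and -0.51 ± 0.25 for chemotherapy (limma adjusted p = 0.511 and 0.265).

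The catalytic subunit Pold1 was below Pold2 in all 12 libraries, at 0.216 to 0.525 of its level, and unlike Pold2 it was lower in Control replicate 1 (8.91 FPKM) than in replicates 2 and 3 (15.7 and 12.9 FPKM). Polymerase epsilon, which copies the leading strand, had Pole below Pole2 in every library. Pole2 read 4.18, 12 and 14.2 FPKM in Control, 9.59, 9.10 and 8.11 in GC, 9.12, 7.02 and 6.47 in ICB, and 9.26, 0.954 and 5.51 in Combination. Combination overlapped GC only through its replicate 1, and the difference of Combination from GC was -0.97 ± 0.55 (limma adjusted p = 0.334). Pole was high in ICB replicate 1 (8.47 FPKM) against 3.17 and 3.28 FPKM in the other ICB libraries.

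**Figure D4:**
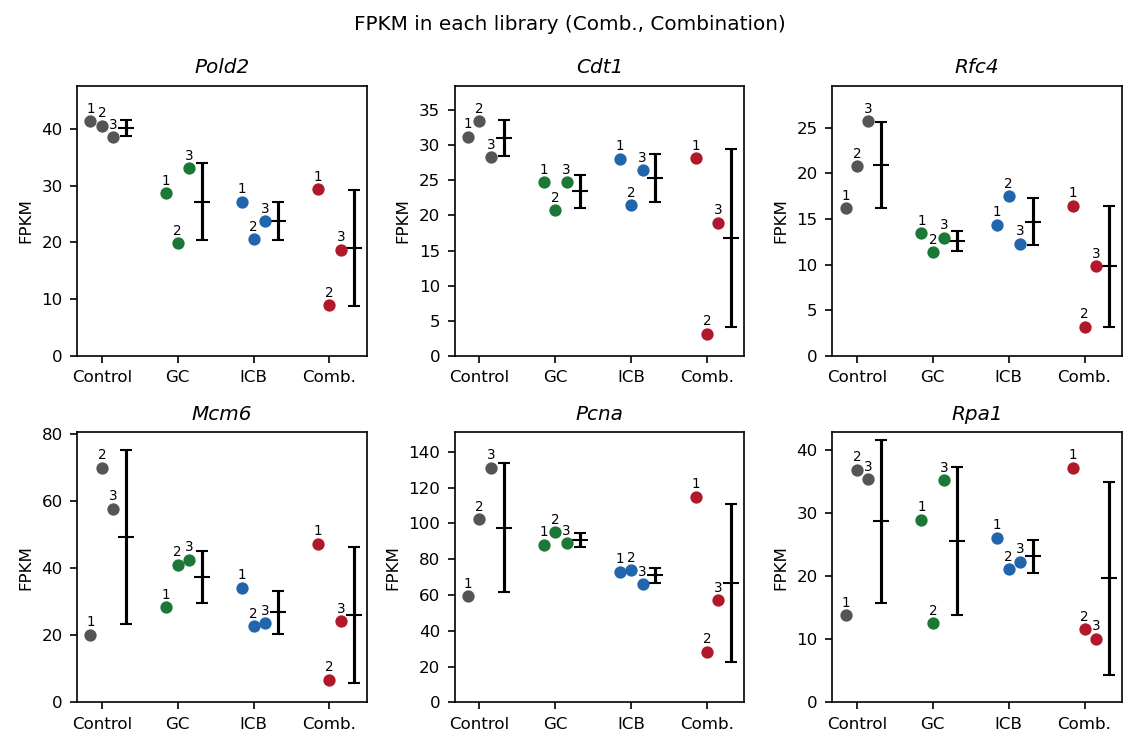
FPKM of Pold2, Cdt1, Rfc4, Mcm6, Pcna and Rpa1 in each library (points, numbered by replicate), with group mean ± SD (bars, n = 3) and axes from 0. For Pold2 and Cdt1 all Control libraries lie above all treated libraries, while for Mcm6 and Pcna Control replicate 1 lies among or below the treated libraries.

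Pcna was the most abundant member, with 59.5, 102 and 131 FPKM in Control, 88.1, 95.2 and 88.9 in GC, 73.0, 73.8 and 66.0 in ICB, and 115, 28.3 and 57.2 in Combination. Every GC library was above every ICB library, with little spread in either. That order was seen in 14 of the 39 members and in 21.8% of tested genes. Reads of Pcna could be shared with its processed pseudogenes, and how the counting treated them is not given in the sources used here.

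The clamp loader opens Pcna and closes it on DNA. Its small subunit Rfc4 (chr16:23113943-23127737, minus strand, GRCm38) read 16.2, 20.8 and 25.7 FPKM in Control, 13.4, 11.4 and 12.9 in GC, 14.4, 17.5 and 12.3 in ICB, and 16.4, 3.21 and 9.84 in Combination. All GC libraries were below all Control libraries, and ICB and Combination each overlapped Control through 1 library. The differences from Control were -0.67 ± 0.42 for GC and -1.22 ± 0.42 for Combination (limma adjusted p = 0.660 and 0.111), and Combination differed from ICB by -0.75 ± 0.42 (limma adjusted p = 0.331). The chemotherapy main effect on Rfc4 was -0.71 ± 0.30 (limma adjusted p = 0.191). It was -0.94 without Combination replicate 1 (limma adjusted p = 0.0340), where 13.6% of tested genes passed. Rfc4 shares exon positions with the abundant Eif4a2 (134 FPKM mean) on the opposite strand and is uncertain for that reason.

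Of the other loader subunits, Rfc3 read 30.5, 39.8 and 45.2 FPKM in Control, 32.3, 27.7 and 32.2 in GC, 32.8, 36.5 and 29.5 in ICB, and 39.5, 7.40 and 23.1 in Combination. Like Rfc4 it was not low in Control replicate 1 relative to GC and ICB. Combination differed from ICB by -0.75 ± 0.45 (limma adjusted p = 0.360), and the low values were those of Combination replicates 2 and 3. Rfc2 read 18.6, 35.4 and 37.6 FPKM in Control, 28.7, 33.6 and 33.2 in GC, 26.1, 19.2 and 24.4 in ICB, and 33.4, 13.7 and 20.8 in Combination, with every GC library above every ICB library. Its blockade main effect was -0.44 ± 0.24 (limma adjusted p = 0.511). Rfc1, the large subunit, was below Rfc2 in all 12 libraries, and Rfc5 ran from 5.98 to 37.0 FPKM.

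Rpa1 and Rpa2 coat single-stranded DNA, and Fen1 removes the flaps of lagging strand fragments. Rpa1 read 13.8, 36.9 and 35.3 FPKM in Control, 28.9, 12.5 and 35.1 in GC, 26.1, 21.0 and 22.3 in ICB, and 37.2, 11.6 and 10.1 in Combination. It was low in GC replicate 2, where Rpa2 (18.2 FPKM) and Fen1 (22.0 FPKM) were the highest of their group, and it was the only member with its lowest value in Combination replicate 3. Rpa2 and Fen1 differed from Control by 0.45 and 0.53 in GC and by -0.27 and -0.35 in ICB. Fen1 shares exon positions with Tmem258 (184 FPKM mean) on the opposite strand. In all, 12 members share exon positions with a gene on the opposite strand and are uncertain in the same way: Orc1, Orc6, Mcm7, Cdc45, Gins2, Pole, Rfc2, Rfc4, Rfc5, Fen1, Ccne2 and Chaf1a. On the same strand, Pole2 shares exon positions with Gm49384, Rpa1 with Gm47300, and Mcm7 with Mir25 and Mir93. Strand could not separate these, so the levels of Pole2, Rpa1 and Mcm7 are uncertain for that reason too.

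Among the G1/S regulators, cyclin E1 (Ccne1) activates the kinase that starts S phase. It read 3.97, 18.1 and 16.4 FPKM in Control, 15.4, 24.7 and 17.2 in GC, 10.9, 7.6 and 7.78 in ICB, and 24, 2.34 and 9.17 in Combination, and every GC library was above every ICB library. E2f1 was steady in Control and ICB (9.72 to 13.1 FPKM) and ran from 7.13 to 18.8 FPKM in GC. Its lowest value, 2.36 FPKM, was in Combination replicate 2. Ccne2 stayed between 1.09 and 5.0 FPKM. The GC differences from Control of Ccne1, Ccne2 and E2f1 were 0.74, 0.31 and 0.21.

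Tyms makes the thymidine precursor, and Uhrf1 and Chaf1a act on newly copied chromatin. Tyms ran from 2.66 FPKM in Control replicate 1 to 16.2 FPKM in Control replicate 3. Uhrf1 was 19.6 and 19.2 FPKM in Control replicates 2 and 3, above all other libraries, and 3.65 FPKM in Control replicate 1. Chaf1a, the large subunit of the histone chaperone CAF-1, read 10.4, 22.0 and 16.8 FPKM in Control, 15.4, 18.5 and 17.5 in GC, 18.4, 11.3 and 13.2 in ICB, and 17.0, 2.91 and 12.3 in Combination. Combination overlapped GC through replicate 1 only, and the difference was -0.89 ± 0.48 (limma adjusted p = 0.328). Its interaction was -0.73 ± 0.69 (limma adjusted p = 0.740), and 0.21 without Control replicate 1 and Combination replicate 2.

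For GC against Control, the median log2 difference of the 39 genes was 0.09, the same as the median of all tested genes (0.09), and 16 of 39 differences were below 0 (41.2% of tested genes). Differences ran from -0.67 for Rfc4 to 0.95 for Gins1. Cdt1, Pold2 and Rfc4 were lower in every GC library than in every Control library, as were 9.29% of tested genes, and no member was higher in that way (18.6%). The sign of this median turned on Control replicate 1: without it the median was -0.39, with 34 of 39 differences below 0, and without Control replicate 2 or 3 it was 0.25 or 0.31. After quantile normalization it was -0.03, against -0.09 over all tested genes. Control replicates 2 and 3 were above all GC libraries for 27 of the 39 genes and for 22.6% of tested genes. Hepatocyte transcripts were higher in GC than in Control for 20 of 20 genes (median log2 difference 4.79, none passed). Their part in these values was not tested.

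For ICB against Control, the median was -0.31, against -0.06 over all tested genes, and 36 of 39 differences were below 0 (57.9% of tested genes). Cdt1 and Pold2 did not overlap between the groups (4.67% of tested genes were lower in that way). Control replicates 2 and 3 were above all ICB libraries for 36 of the 39 genes (22.8% of tested genes), and without Control replicate 1 the median was -0.71, still with no member passing. Without Control replicate 2 it was -0.10 (25 of 39 below 0), and without Control replicate 3 it was -0.08 (23 of 39). Hepatocyte transcripts were higher in ICB than in Control for 20 of 20 genes (median 2.90, none passed), by less than in GC (median 4.79). Their part in the difference was not tested.

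For Combination against Control, the median was -0.63, against -0.29 over all tested genes, with 37 of 39 differences below 0 (67% of tested genes). Only Mcm10 (0.35) and Gins1 (0.24) were above 0, and without Control replicate 1 no member was. Cdt1 and Pold2 did not overlap between the groups, as did not 13.2% of tested genes on the lower side. The size of the difference turned on the low libraries of both groups. The median was -0.11 without Combination replicate 2, against -0.04 over all tested genes, with 24 of 39 differences below 0. Leaving out Control replicate 1 gave -1.09 (-0.37 over all tested genes), with 39 of 39 below 0. Leaving out both, chosen after their low values were seen, gave -0.50 (-0.13 over all tested genes), with 37 of 39 below 0. Pold2 alone passed after quantile normalization with all libraries (6.72% of tested genes). Among fits that left out 1 library, members passed only without Combination replicate 1, the library rich in intestinal transcripts. Without it, 10 members passed, all lower (Cdt1, Mcm2, Mcm7, Gins2, Pold1, Pold2, Pcna, Rfc1, Rfc3 and Rfc4), while 24.8% of all tested genes passed. In the remaining pair hepatocyte genes made up 19.96% and 8.16% of FPKM, and 19 of 20 passed as higher in Combination with all libraries included. The share of the difference that liver transcripts account for was not tested.

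**Figure D5:**
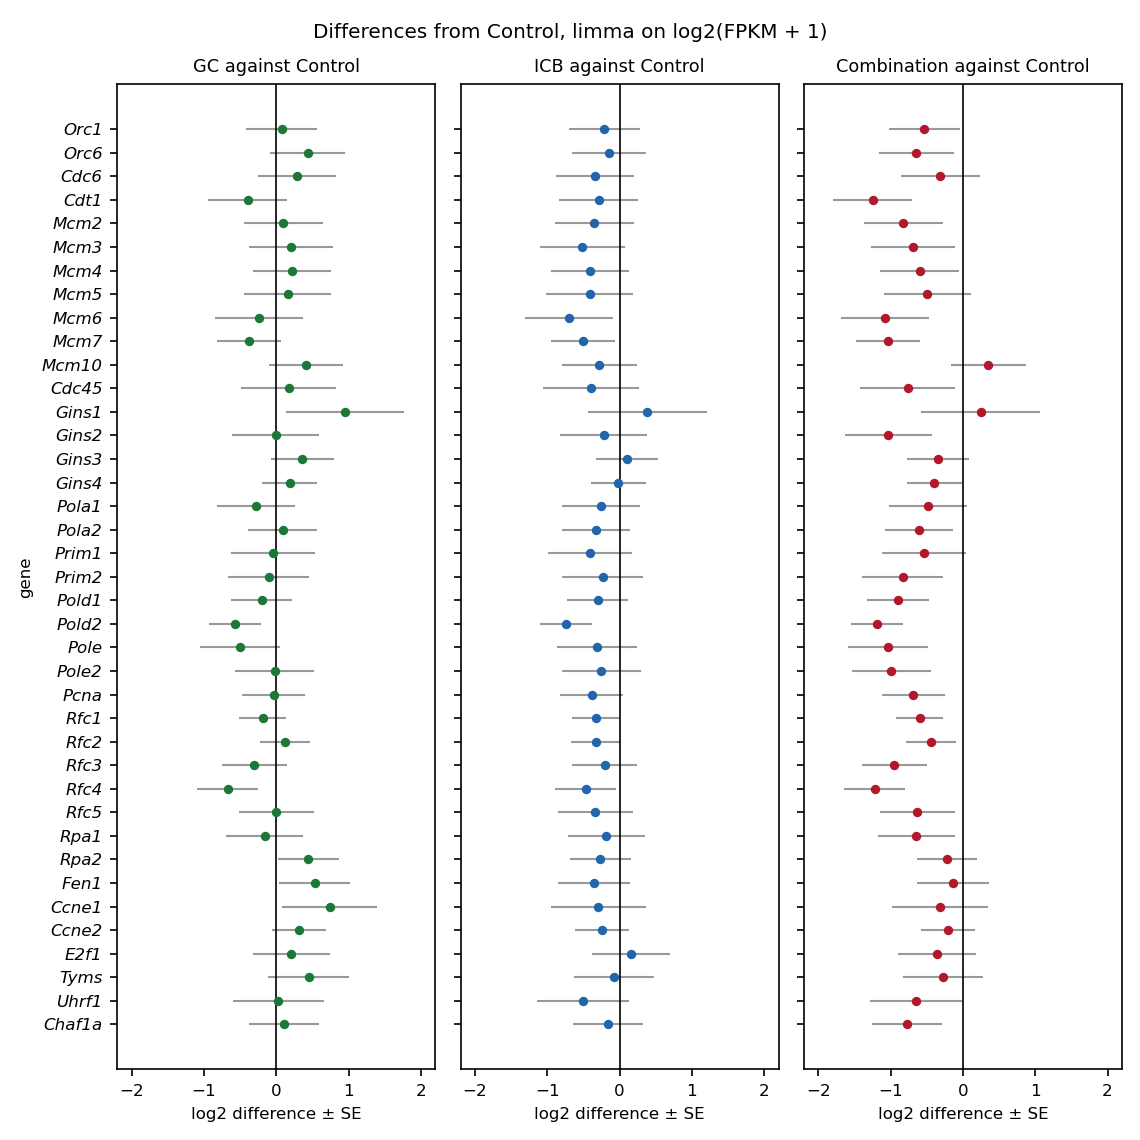
Points are log2(FPKM + 1) differences of GC, ICB and Combination from Control for each of the 39 genes and bars are ± SE of the limma fit; the 3 panels use the same Control libraries. GC differences lie on both sides of 0 with a median of 0.09, ICB differences have a median of -0.31, and Combination differences a median of -0.63 with Mcm10 and Gins1 above 0.

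The other comparisons gave medians of -0.67 for Combination against GC (-0.36 over all tested genes; 39 of 39 below 0, 76.2% of tested genes) and -0.33 for Combination against ICB (-0.21; 34 of 39, 64.5%). Without Combination replicate 2 the first was -0.16 (-0.11 over all tested genes) and the second turned to 0.20, with 10 of 39 below 0. Without Combination replicate 1, 7 members passed against GC, all lower (Orc6, Mcm2, Mcm4, Gins2, Pold1, Pold2 and Pcna), where 23.6% of tested genes passed. Against ICB none did, where 16.1% passed. No member's libraries stood wholly below those of GC or of ICB, where 14.2% and 10.1% of tested genes did. The chemotherapy main effect had a median of -0.12 (-0.04 over all tested genes; 27 of 39 below 0, 54.2% of tested genes), and the blockade main effect -0.50 (-0.22; 39 of 39, 75.8%). Without Combination replicate 2 the chemotherapy median turned to 0.14 (13 of 39 below 0) and the blockade median was -0.24 (37 of 39). Leaving out Control replicate 1 gave -0.36 (34 of 39) for chemotherapy and -0.68 (39 of 39) for blockade. Over all tested genes these were -0.10 and -0.25. Leaving out both libraries gave -0.06 (26 of 39) and -0.44 (38 of 39), where all tested genes had 0.03 and -0.13. Without Combination replicate 1, Rfc4 passed for chemotherapy, where 13.6% of tested genes passed, and Pold2 for blockade, where 9.69% passed. The interaction had a median of -0.39 (-0.26; 36 of 39 below 0, 68.2%), and it turned to 0.04 without Control replicate 1, to 0.19 without Combination replicate 2 and to 0.54 without both. With the mean of the hepatocyte genes added to the fit, the medians against Control were 1.14 for GC, 0.43 for ICB and 1.11 for Combination. Those of all tested genes under this fit were 0.44, 0.19 and 0.36, also above 0. Under it Orc6 and Fen1 passed as higher for GC against Control (5.93% of tested genes passed) and Fen1 for chemotherapy (3.55%). After TMM scaling, which moved the median of all tested genes for Combination against Control from -0.29 to -0.02, the members' medians were 0.01 for GC, -0.21 for ICB and -0.33 for Combination against Control.

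Related genes outside the 39 gave the same picture of no calls. In a list of 35 other replication genes, 10 of nucleotide supply, 27 of G1/S control (26 tested) and 24 of mitosis, none passed in any comparison. For Combination against Control their medians were -0.52, -0.31, -0.53 and -0.52, where that of all tested genes was -0.29. For ICB against Control they were -0.21, -0.35, -0.14 and -0.24, where that of all tested genes was -0.06. The smallest adjusted p in them for Combination against Control was that of Cdkn1b, the CDK inhibitor p27 (-1.15 ± 0.29, limma adjusted p = 0.0530), followed by Cdk6, a partner of the D cyclins (-1.10 ± 0.30, limma adjusted p = 0.0617). Recql4 and Topbp1, which act at the start of replication, differed by -1.22 and -1.11 (limma adjusted p = 0.102 and 0.144). Of the nucleotide supply genes, Shmt1, a folate enzyme that liver also expresses, differed by 1.29 (limma adjusted p = 0.137). Cad differed by -0.81 (limma adjusted p = 0.170), and 7 of the 10 genes in that list were lower. Among mitosis genes Nusap1 and Ndc80 had the smallest p, with -0.88 and -0.80 (limma adjusted p = 0.335 and 0.399).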

How the data were processed

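Bulk RNA-seq of 12 tumours (4 groups of 3) was analysed. The authors deposited FPKM, 1 value per gene symbol and library. Stranded libraries were made with Qiagen kits, per the labels' protocols. FastQC, cutadapt, HISAT2, SAMtools, HTSeq and mm10 were used, per the submitters' processing notes, which give no versions. The step that made FPKM and the use of strand are not given in the sources used here. Groups and replicate numbers come from the sample titles.

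Testing was limited to the 12765 genes averaging 1 FPKM or more. They were analysed as log2(FPKM + 1) with limma 3.58.1 in R 4.3.3, fitting the means of all 4 groups with an intensity trend (8 residual degrees of freedom) and adjusting by Benjamini-Hochberg over all tested genes (threshold 0.05), in 8 comparisons. The step was tested on simulated data. Small values were compared over 66 pairs of libraries: the fullest bin of log2 ratios held at most 17.3% of genes, so whole reads were not recovered and no count test was run. TMM scaling factors (trimmed mean of M-values, computed on the FPKM with own code after the published definition), quantile normalization, another pseudocount (0.1), 2 other filters, a hepatocyte covariate, a replicate block and leaving out libraries were alternatives. All 39 members were named, with full statistics for the 3 of smallest p in each comparison, and of each related list the 2 of smallest p, described for Combination against Control. The members and lists were chosen with earlier results of these data known. Locations and exon overlaps come from GENCODE M21 (GRCm38).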

Additional observations from a re-analysis of the deposited data

How the results depend on the processing

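No member passed in any of the 8 comparisons with all 12 libraries. This held under TMM scaling, a pseudocount of 0.1, no filter, a mean of at least 10 FPKM, no intensity trend and removal of the muscle-rich pair. It also held in fits on the groups of a comparison alone, which were not run for the main effects and the interaction. Quantile normalization called 1 member for Combination against Control (Pold2; 6.72% of tested genes passed). With the hepatocyte mean as a covariate, 2 members passed as higher for GC against Control (Orc6 and Fen1; 5.93% of tested genes passed) and 1 for chemotherapy (Fen1; 3.55%). Leaving out 1 library at a time gave 0 to 10 members for Combination against Control (24.8% of tested genes passed where 10 did), 0 to 7 for Combination against GC (23.6% where 7 did), 0 to 1 for each main effect (13.6% for chemotherapy and 9.69% for blockade where 1 did) and 0 elsewhere, and the calls came only without Combination replicate 1. Pairing by the replicate numbers of the titles was not evident: 8 of 18 same-numbered pairs had deviations correlated above 0.1 (range -0.24 to 0.42). Differently numbered pairs ranged from -0.45 to 0.43. With the replicate number as a block 0 members passed in every comparison. The main fit also called none, so the block cannot show whether libraries were paired. The description field numbers some libraries differently, and pairing by those numbers was not checked.

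The hepatocyte covariate turned signs. Under it the medians of the 39 genes were 1.14 for GC, 0.43 for ICB and 1.11 for Combination against Control, 0.03 and 0.76 for Combination against GC and ICB, and 0.92 and 0.24 for chemotherapy and blockade. All tested genes shifted too, with medians in the same order of 0.44, 0.19, 0.36, -0.08, 0.22, 0.32 and 0.05. Pold2 and Rfc4 became 0.0537 and 0.269 for GC against Control, Mcm6 and Mcm7 0.17 and 0.20 for ICB, and Rfc4 and Mcm7 0.34 and 0.75 for Combination. Against ICB, Combination gave 0.19 for Rfc4, 0.18 for Cdt1 and 0.27 for Rfc3. The chemotherapy effect became 0.23 for Rfc4, 0.12 for Pold2 and 0.47 for Cdt1, and the blockade effect 0.13 for Mcm7 and 0.0137 for Rfc2. The covariate differs between the groups, so it and treatment cannot be told apart. Without Control replicate 1 and Combination replicate 2, chosen after seeing their low values, Gins1 was -0.19 for GC against Control, and the interaction was 0.0671 for Gins3, 0.10 for Orc6 and 0.21 for Chaf1a. Leaving out 1 library at a time moved Gins1 for GC against Control between -0.19 (without Control replicate 1) and 1.62. The cause of these changes was not tested. Depth is unknown, and 3 libraries a group limit what can be called.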
